A study of Caenorhabditis elegans with 8 samples.

Results

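The proteasome subunit genes of Caenorhabditis elegans were followed through whole-worm messenger RNA. Members were chosen by symbol, as every gene of the count table whose WormBase name is pas, pbs, rpn or rpt followed by a number. This gave 33 of 46748 gene identifiers: 7 pas genes for the alpha ring and 7 pbs genes for the beta ring of the core particle (14 genes), and 6 rpt ATPases and 13 rpn non-ATPases of the regulatory particle (19 genes). All 33 passed the filter on low counts, so the list tested is the list chosen.

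The proteasome degrades proteins that carry ubiquitin chains. Its core particle is a barrel of stacked rings in which the outer alpha rings gate the entrance and the inner beta rings hold the protease sites. The regulatory particle caps the barrel, binds the chain, removes it and unfolds the substrate with a ring of ATPases. Subunits are made in matched amounts, and in worms the transcription factor SKN-1A raises their transcription when proteasome activity drops. Arsenite binds thiol groups of proteins and is known to cause protein misfolding.

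The worms were hermaphrodites of the wild-type strain N2, and RNA came from whole animals, germ line and embryos included. The 8 libraries form 4 groups of 2: arsenite at 5 days, water at 5 days, arsenite at 1 day and water at 1 day. The labels give 100 nM for arsenite and, likewise, for water. Ages are recorded as 5 days and 1 day, and the length of exposure is not stated. The labels do not say whether the libraries within a group are separate cultures, and p-values therefore measure the spread among these 8 samples, which may be technical. The older worms carry library numbers 23 to 26 and the younger ones 31 to 34, and the numbering and age cannot be told apart.

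Libraries held 21598326 to 27317490 counts. The 33 members together took 0.828% and 0.816% of all counts in the arsenite libraries at 5 days, 0.858% and 0.82% in water at 5 days, 0.77% and 0.749% in arsenite at 1 day, and 0.749% and 0.796% in water at 1 day. Each of the 32 members other than rpn-6.2 had 2662 to 18235 counts per library, and rpn-6.2 had 204 to 440. Levels are given in CPM, the count of a gene scaled to a common library total, after TMM scaling, which sets libraries to a common scale from genes that differ little. Fold changes, standard errors (SE) and p-values are from edgeR's quasi-likelihood test with Benjamini-Hochberg adjustment over all 14449 genes tested, called under 0.05. In whole-worm RNA, fewer cells of a type and less RNA per cell cannot be told apart.

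Levels of different genes were compared per kilobase of exon, as the mean of the 2 libraries of each group. Leaving out rpn-6.2, the 32 members lay between 126.5 CPM per kb (rpn-13) and 287 CPM per kb (rpt-1) in arsenite at 5 days, a 2.27-fold span, and between 128 (rpn-10) and 299 CPM per kb (pbs-1) in water at 5 days, a 2.33-fold span. In arsenite at 1 day they lay between 112 (rpn-13) and 269 CPM per kb (rpt-1), and in water at 1 day between 116 (rpn-13) and 265 CPM per kb (rpt-1). The core particle was the tighter set, with a span of 1.74-fold and 1.71-fold in arsenite and water at 5 days, and of 1.61-fold and 1.62-fold in arsenite and water at 1 day. The gene rpn-6.2, a second gene for the lid subunit RPN-6, stood far below the others at 6.55 ± 0.547 CPM per kb in arsenite and 5.69 ± 0.325 CPM per kb in water at 5 days, and at 9.41 ± 0.226 CPM per kb in arsenite and 10.4 ± 0.265 CPM per kb in water at 1 day (SD, n = 2 each). Its partner rpn-6.1, whose product clamps the regulatory particle to the core and whose overexpression protects worms from proteotoxic stress, had 137 ± 1.08 and 132 ± 3.07 CPM per kb in arsenite and water at 5 days, and 159 ± 2.70 and 162 ± 4.05 CPM per kb in arsenite and water at 1 day (SD, n = 2 each). How reads that map to both genes were counted is not given in the sources used here.

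**Figure D1:**
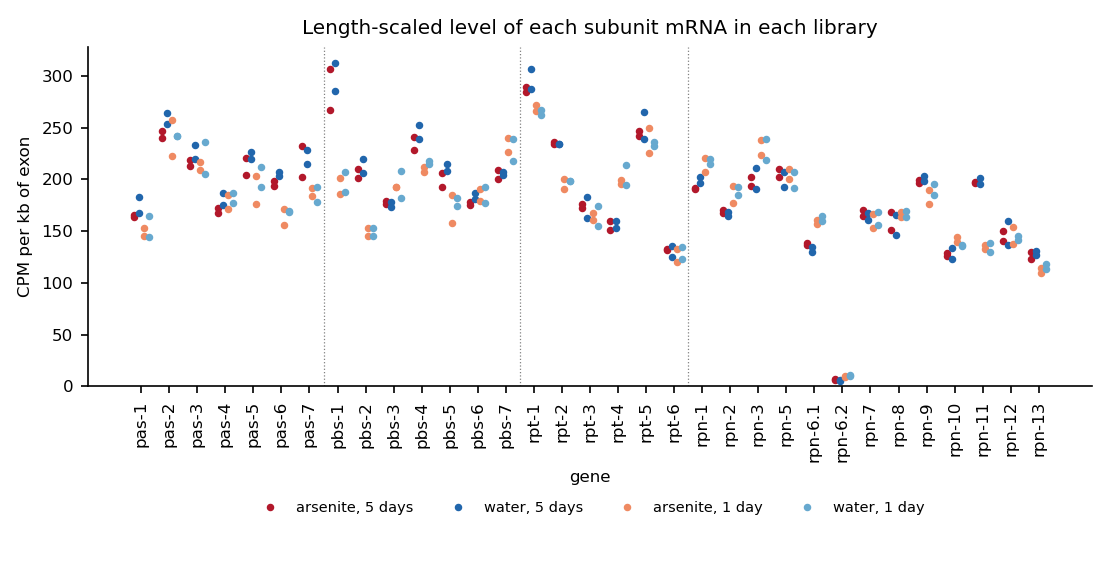
Level of each of the 33 proteasome subunit mRNAs in CPM per kb of exon, 1 point per library, coloured by group, with dotted lines between the alpha ring, beta ring, ATPases and non-ATPases. All members but rpn-6.2 lie close together, with group means between 126.5 and 287 CPM per kb in arsenite at 5 days.

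The first comparison asked whether arsenite changed subunit messages relative to water. By edgeR 0 of 33 members passed the test at 5 days, 0 at 1 day, 0 on the average of both ages, and 0 in the difference between the arsenite effects at the 2 ages. Over all genes the share called was 0.0138% higher and 0% lower at 5 days, and 0% in either direction in the other 3. At an unadjusted p under 0.05 the members numbered 0 in each of the 4, against 3.97% of all genes at 5 days, 1.65% at 1 day, 2.85% on average and 2.55% in the difference. DESeq2 and limma voom also called 0 members in each. Without rpn-6.2, the 95% intervals of the other 32 members lay within 0.856-fold to 1.13-fold at 5 days and within 0.849-fold to 1.13-fold at 1 day, and all of them included no change.

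Between the core and the regulatory particle, the core at 5 days had the more one-sided values. Its 14 genes summed to 2631 and 2608 CPM in arsenite, against 2742 and 2716 CPM in water. The libraries of the 2 groups do not overlap. At 1 day the same sum was 2478 and 2301 CPM in arsenite, against 2346 and 2522 CPM in water, where the groups overlap. Of the 14 genes, 13 had a negative log2 fold change at 5 days (median -0.07) and 11 at 1 day (median -0.03), while the medians of all genes tested were -0.0042 and -0.0018. The median at 5 days stayed between -0.09 and -0.06 on leaving out any 1 library. At 1 day it ran from -0.08 to 0.04, and it was positive without replicate 2 of water (0.04) or replicate 2 of arsenite (0.03) at 1 day. In 7 of the 14 core genes, pas-1, pas-2, pas-3, pas-4, pas-6, pbs-5 and pbs-6, both arsenite libraries at 5 days were below both water libraries, and in 0 were both above. That lack of overlap held for 15.4% of all genes in the lower direction and 14.1% in the higher direction. None of the 7 passed the test. Markers of other tissues also lay lower in arsenite at 5 days, and their part in the core values was not tested. Of 8 hypodermal genes 8 were negative (median -0.22, summed 179 and 181 CPM in arsenite, against 187 and 199.6 CPM in water). Of 8 body wall muscle genes 7 were negative (median -0.13, summed 1641 and 1650 CPM in arsenite, against 1678 and 1890 CPM in water), and of 8 neuronal genes 7 (median -0.15, summed 407 and 434 CPM in arsenite, against 438 and 457 CPM in water). The groups do not overlap in these 3 sums, and 0 of these genes passed the test. In the other tissue lists 5 of 7 intestinal, 6 of 10 oocyte and early embryo, 4 of 8 zygotic embryo and 2 of 5 spermatogenesis genes tested were negative.

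The regulatory particle was split. Its 19 genes summed to 5460 and 5325 CPM in arsenite, against 5543 and 5300 CPM in water at 5 days, and to 5608 and 5299 CPM in arsenite, against 5366 and 5604 CPM in water at 1 day. Groups overlap at both ages. At 5 days 9 genes had positive and 10 negative log2 fold changes, and at 1 day 8 and 11. Their medians (-0.0091 at 5 days and -0.02 at 1 day) changed sign on leaving out single libraries, with ranges of -0.02 to 0.03 and -0.06 to 0.03. They were positive without replicate 1 of water (0.03) or replicate 2 of arsenite (0.0029) at 5 days, and without replicate 2 of water (0.03) or replicate 2 of arsenite (0.03) at 1 day. Groups did not overlap at 5 days for rpn-1, lower in arsenite, and for rpn-6.1, rpn-6.2 and rpt-2, higher in arsenite. At 1 day they did not overlap for rpn-6.2 and, in the core, pbs-4, both lower in arsenite, and for rpn-10, higher in arsenite, beside 14.2% of all genes lower and 14.3% higher.

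Among single members the smallest p at 5 days belonged to rpn-6.2, with 10.8 and 9.59 CPM in arsenite, against 8.50 and 9.22 CPM in water, a log2 fold change of 0.20 (SE 0.13, adjusted p = 0.999). The alpha subunit pas-4 followed with 152 and 148 CPM in arsenite, against 165 and 155 CPM in water (log2 fold change -0.09, SE 0.06, adjusted p = 0.999). The alpha subunit pas-2 had 208 and 202 CPM in arsenite, against 223 and 214 CPM in water (-0.09, SE 0.06, adjusted p = 0.999). At 1 day the smallest p belonged to the alpha subunit pas-5, with 174 and 151 CPM in arsenite, against 165 and 181 CPM in water (-0.09, SE 0.07, adjusted p = 1). In rpn-6.2 the order of the groups was turned round at 1 day, with 14.9 and 14.4 CPM in arsenite, against 15.9 and 16.4 CPM in water (-0.14, SE 0.11, adjusted p = 1). The ubiquitin receptor rpn-10 had 186 and 179.6 CPM in arsenite, against 176 and 175 CPM in water at 1 day (0.06, SE 0.06, adjusted p = 1).

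The difference of the arsenite effects, 5 days minus 1 day, was widest in rpn-6.2, at 0.34 on the log2 scale (SE 0.17, 95% interval -0.0059 to 0.69, unadjusted p = 0.0537 by edgeR, adjusted p = 1.00). It rests on the fewest counts of any member. Next by p came rpn-6.1 (0.09, SE 0.08) and the ATPase rpt-1 (-0.07, SE 0.08). Averaged over both ages the smallest p belonged to pas-5 (-0.08, SE 0.05), the alpha subunit pas-1 (-0.07, SE 0.05) and the catalytic subunit pbs-5 (-0.07, SE 0.05), none of which passed. Across the 33 members the arsenite effects at 5 days and 1 day, which share no library, had a Pearson correlation of -0.177 (Spearman 0.246), and 16 members had the same sign. Without rpn-6.2 it was 0.345 (Spearman 0.367). Over all genes tested it was 0.0050 (Spearman 0.023), and 7486 of 14449 had the same sign. Members share their libraries, so these describe the list only.

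**Figure D2:**
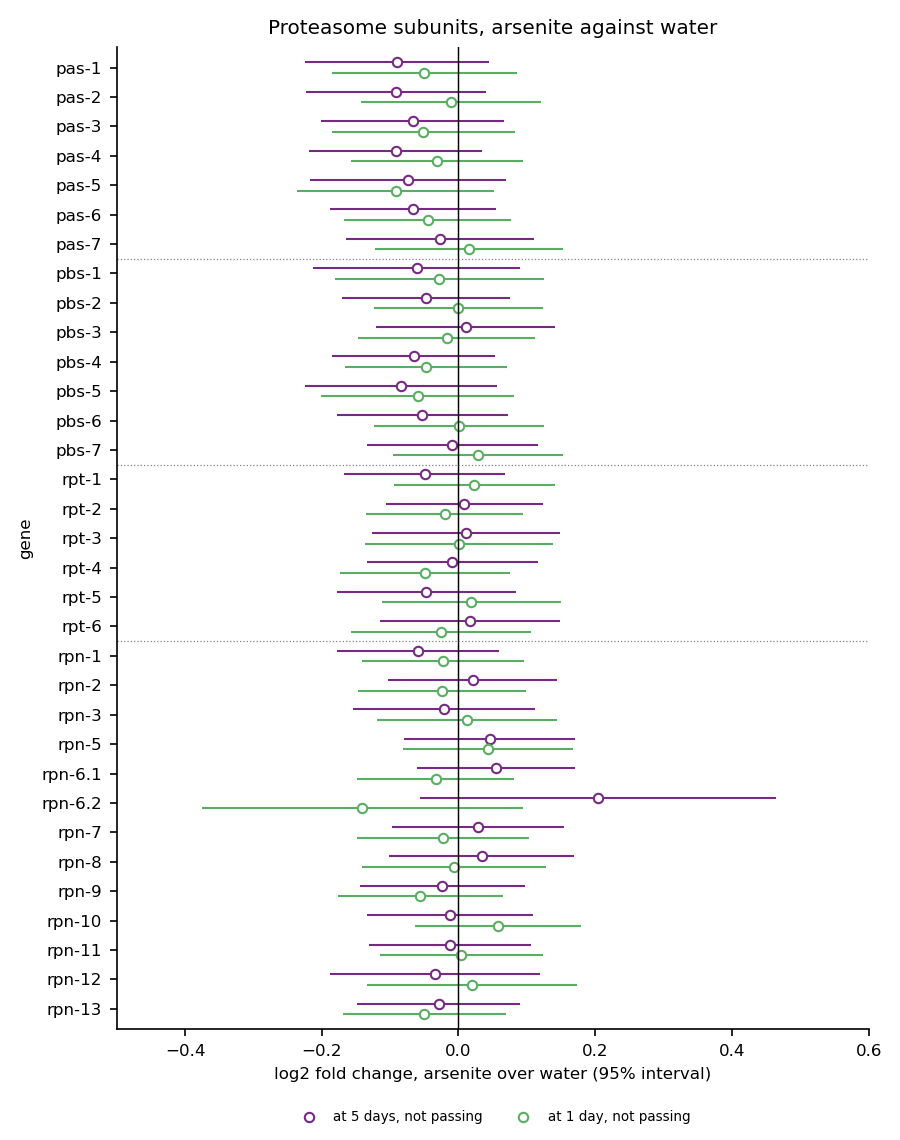
Log2 fold change of arsenite over water for each of the 33 members at 5 days (purple) and at 1 day (green), with 95% intervals; open circles did not pass the test. All intervals include 0, and rpn-6.2 lies at 0.20 at 5 days and at -0.14 at 1 day.

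The second comparison set 5 days against 1 day, in arsenite and in water, and here subunits moved apart. In arsenite 9 members rose and 7 fell, and in water 11 rose and 7 fell. Of all genes, 30.3% were called higher and 29.4% lower in arsenite (59.6% in either direction), and 30.1% higher and 30% lower in water (60.1%). The members' counts lie near these shares. Most core genes that were called rose (6 rose and 1 fell in arsenite, 7 rose and 2 fell in water), and the regulatory particle split (3 rose and 6 fell in arsenite, 4 rose and 5 fell in water). The median log2 fold change of the core was 0.15 in arsenite and 0.16 in water, against 0.01 and 0.0078 for all genes, while that of the regulatory particle was 0.0044 in arsenite and 0.02 in water. The regulatory median had no stable sign, running over all alternatives from -0.03 to 0.09 in arsenite and from -0.05 to 0.09 in water. On leaving out 1 library of the groups compared it was negative in arsenite without replicate 1 of arsenite at 5 days (-0.03) or replicate 2 of arsenite at 1 day (-0.03). In water it was negative without replicate 1 of water at 5 days (-0.05) or at 1 day (-0.05). The core median stayed positive, from 0.08 to 0.23 in arsenite and from 0.09 to 0.24 in water, and was lowest on leaving out replicate 2 of the 1-day arsenite group and replicate 1 of the 1-day water group.

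The split of calls moved with the scaling. With total counts alone in place of TMM, 16 members rose and 2 fell in arsenite, and 15 rose and 3 fell in water. The median log2 fold change of all genes moved up as well. It went from 0.013 to 0.096 in arsenite and from 0.0078 to 0.085 in water, so the shift is not particular to the members. The share of all genes called is not given for this or the other alternatives. On leaving out 1 library, the count of rises in arsenite was 5 without replicate 2 of arsenite at 1 day, and the count of falls was 4 without replicate 2 of arsenite at 5 days and 3 without replicate 1 of arsenite at 1 day. In water the rises numbered 7 without replicate 1 of water at 1 day, and the falls numbered 3 without replicate 2 of water at 5 days or without replicate 2 of water at 1 day. In every one of the 15 alternatives the calls held for pas-6, pbs-1, pbs-2, rpn-11 and rpt-2 (higher) and rpn-6.2 and rpt-4 (lower) in arsenite, and for these and pas-7, pbs-5 and rpn-6.1 in water.

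The arsenite and water libraries, which are separate, gave a similar order of subunits. Of the 11 members that rose in water, 9 rose in arsenite and 2 did not pass. Of the 7 that fell in water, 5 fell in arsenite and 2 did not pass, and 0 members were called in opposite directions. Across the 33 members the age changes in arsenite and in water correlated at 0.969 (Pearson; Spearman 0.968; 0.982 and 0.965 without rpn-6.2), beside 0.930 (Spearman 0.926) over all genes tested. Taking ages alone, all 4 libraries at 5 days lay above all 4 at 1 day in 11 members, against 33.2% of all genes, and below them in 9 members, against 32.3%.

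**Figure D3:**
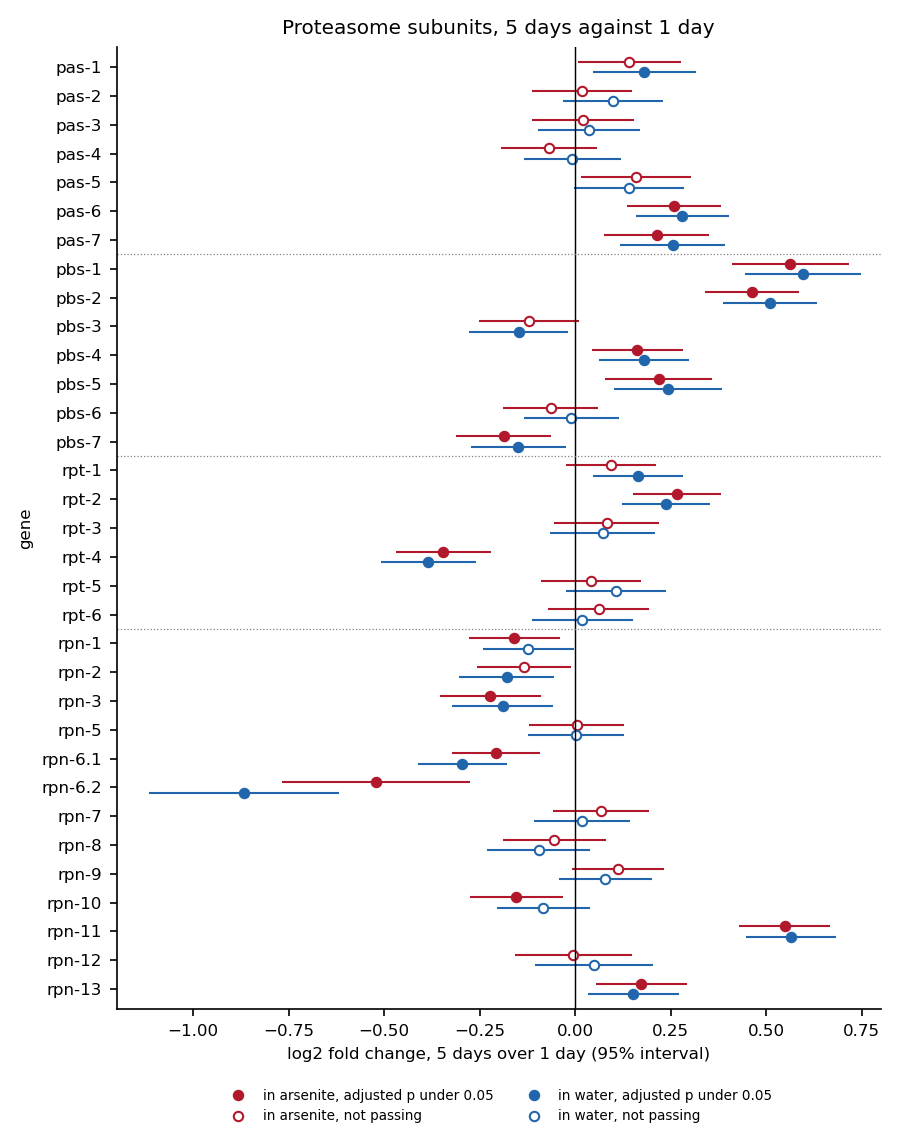
Log2 fold change of 5 days over 1 day for each of the 33 members in arsenite (red) and in water (blue), with 95% intervals; filled circles passed the test at an adjusted p under 0.05. The largest rises are pbs-1, rpn-11 and pbs-2 and the largest falls rpn-6.2 and rpt-4, in both treatments.

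Within the beta ring the 3 subunits that hold the protease sites all rose, pbs-1 and pbs-2 the most. The gene pbs-1 encodes the caspase-like subunit and lies on chromosome IV from 1708814 to 1709745. It had 219.6 and 252 CPM in arsenite at 5 days, against 166 and 153 CPM in arsenite at 1 day. In water it had 235 and 257 CPM at 5 days, against 155 and 170.4 CPM at 1 day. All libraries at 5 days were above all libraries at 1 day, and it rose 1.48-fold in arsenite (log2 fold change 0.56, SE 0.07, adjusted p = 1.95e-06) and 1.51-fold in water (0.60, SE 0.07, adjusted p = 9.62e-07).

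The gene pbs-2 encodes the trypsin-like subunit and lies on chromosome I from 12967216 to 12968280. In arsenite it had 203 and 212 CPM at 5 days, against 154 and 147 CPM at 1 day, and in water 208 and 221 CPM at 5 days, against 146 and 155 CPM at 1 day. Ages did not overlap, and it rose 1.38-fold in arsenite (log2 fold change 0.46, SE 0.06, adjusted p = 4.95e-07) and 1.43-fold in water (0.51, SE 0.06, adjusted p = 1.17e-07).

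The chymotrypsin-like subunit pbs-5 had 204 and 218 CPM at 5 days, against 196 and 167 CPM at 1 day in arsenite, and 220.2 and 227 CPM at 5 days, against 185 and 193 CPM at 1 day in water. It rose 1.16-fold in arsenite (log2 fold change 0.22, SE 0.07, adjusted p = 0.00852) and 1.18-fold in water (0.24, SE 0.07, adjusted p = 0.00385). The call in arsenite was lost without replicate 2 of arsenite at 5 days (adjusted p = 0.123) or at 1 day (adjusted p = 0.273), in a range over its alternatives of 0.000281 to 0.273. Without replicate 2 of arsenite at 1 day pbs-5 (0.10) lay below pbs-4 (0.14), a beta subunit without a protease site.

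The 4 beta subunits without protease sites went different ways. The gene pbs-4 rose, and pbs-7 fell, in both treatments, pbs-3 fell in water and did not pass in arsenite, and pbs-6 passed in neither. Of the exons of pbs-7, 7.97% overlap K07A12.5 on the same strand. Of those of pbs-4, 9.11% overlap mrrf-1 on the other strand. The fall of pbs-3 in water was lost in 10 of the 15 alternatives and that of pbs-7 in 7, in each case also without either water library at 5 days or the second at 1 day. In arsenite the fall of pbs-7 was lost without replicate 2 of arsenite at 5 days or replicate 1 at 1 day, and the rise of pbs-4 without replicate 1 of arsenite at 5 days or either arsenite library at 1 day. In water the rise of pbs-4 was lost without replicate 1 of water at 5 days or at 1 day. A ratio within a library does not depend on scaling. The mean count per kb of pbs-1, pbs-2 and pbs-5 over that of pbs-3, pbs-4, pbs-6 and pbs-7 was 1.10 and 1.23 in arsenite and 1.14 and 1.24 in water at 5 days, against 0.862 and 0.810 in arsenite and 0.855 and 0.844 in water at 1 day. All ratios at 5 days were above 1 and all at 1 day below it. This ratio restates the changes of its genes, pbs-1 and pbs-2 most, and is no further support. The rise of pbs-5 was near that of pbs-4 (1.12-fold in arsenite and 1.13-fold in water).

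In the alpha ring pas-6 and pas-7 rose in both treatments, pas-1 rose in water, and pas-2, pas-3, pas-4 and pas-5 passed in neither. With total counts alone, or without the filter on low counts, pas-5 was called higher in both treatments. The gene pas-6 had 196 and 191.5 CPM at 5 days, against 169.8 and 154 CPM at 1 day in arsenite, and 201 and 204.5 CPM at 5 days, against 167 CPM in both libraries at 1 day in water. It rose 1.21-fold in water (log2 fold change 0.28, SE 0.06, adjusted p = 0.000279). The rise of pas-7 in arsenite was lost without replicate 1 of arsenite at 5 days or replicate 2 at 1 day, and that of pas-1 in water without replicate 1 of water at 5 days or at 1 day. The 7 alpha genes ran from -0.07 to 0.26 on the log2 scale in arsenite and from -0.0071 to 0.28 in water, a narrower spread than the -0.19 to 0.56 and -0.15 to 0.60 of the 7 beta genes.

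**Figure D4:**
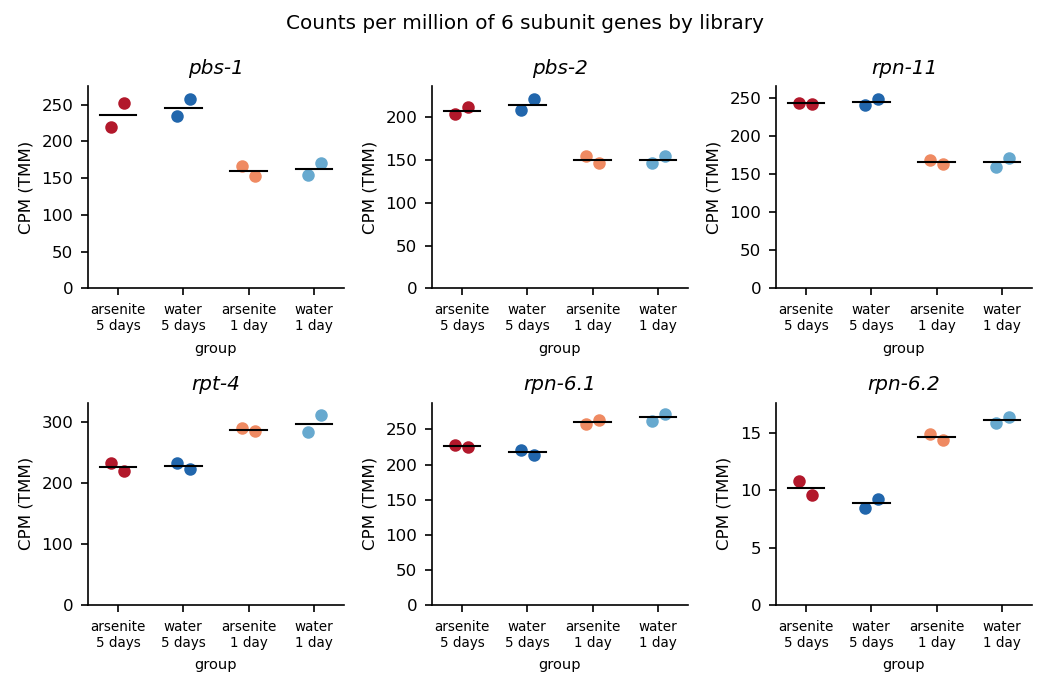
CPM of pbs-1, pbs-2, rpn-11, rpt-4, rpn-6.1 and rpn-6.2 in each library (points) with the mean of each group of 2 (line). In pbs-1, pbs-2 and rpn-11 the libraries at 5 days lie above those at 1 day, and in rpt-4, rpn-6.1 and rpn-6.2 below them.

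In the regulatory particle the strongest rise was that of rpn-11, the metalloprotease that cuts the ubiquitin chain from the substrate. It lies on chromosome II from 4043055 to 4044546. It had 244 and 242 CPM at 5 days, against 169 and 164 CPM at 1 day in arsenite, and 241.5 and 249 CPM at 5 days, against 159.9 and 171 CPM at 1 day in water. Ages stood well apart, and it rose 1.46-fold in arsenite (log2 fold change 0.55, SE 0.06, adjusted p = 2.10e-08) and 1.48-fold in water (0.57, SE 0.06, adjusted p = 1.36e-08). Its binding partner rpn-8, a related protein without protease activity, passed in neither treatment. The count of rpn-11 per kb over that of rpn-8 was 1.17 and 1.30 in arsenite and 1.18 and 1.37 in water at 5 days, against 0.812 and 0.8098 in arsenite and 0.7897 and 0.8197 in water at 1 day. This ratio restates the rise of rpn-11 and is no further support.

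The ATPase rpt-4 went the other way. It lies on chromosome II from 42207 to 46216 and had 234 and 220.3 CPM at 5 days, against 291 and 285.5 CPM at 1 day in arsenite, and 233 and 224 CPM at 5 days, against 284 and 312 CPM at 1 day in water. Ages did not overlap, and it fell to 0.787 of the 1-day level in arsenite (log2 fold change -0.34, SE 0.06, adjusted p = 3.49e-05) and to 0.766 in water (-0.38, SE 0.06, adjusted p = 8.73e-06). Of its exons, 7.05% overlap rpoa-49 on the other strand, and the strand setting of the count is not given in the sources used here. Of the other ATPases, which form 1 ring with it, rpt-2 rose in both treatments, rpt-1 rose in water, and rpt-3, rpt-5 and rpt-6 passed in neither. The gene rpt-2 had 349 and 346 CPM at 5 days, against 296 and 281 CPM at 1 day in arsenite, and rose 1.20-fold there (log2 fold change 0.27, SE 0.06, adjusted p = 0.000255). In water it had 345 CPM in both libraries at 5 days, against 292 and 293 CPM at 1 day. The rise of rpt-1 in water was lost without replicate 1 of water at 5 days or at 1 day. The count of rpn-11 per kb over that of rpt-4 was 1.23 and 1.30 in arsenite and 1.23 and 1.31 in water at 5 days. At 1 day it was 0.685 and 0.678 in arsenite and 0.667 and 0.649 in water. This pair was taken with its opposite changes known, so the ratio restates them and is no further support.

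Both RPN-6 genes fell. The gene rpn-6.1, on chromosome III from 6959110 to 6962001, had 227 and 225 CPM at 5 days, against 258 and 264 CPM at 1 day in arsenite, and 221 and 214 CPM at 5 days, against 262 and 272 CPM at 1 day in water. It fell to 0.867 of the 1-day level in arsenite (log2 fold change -0.21, SE 0.06, adjusted p = 0.00285) and to 0.815 in water (-0.29, SE 0.06, adjusted p = 8.85e-05). With total counts alone the fall in arsenite did not pass (-0.12, adjusted p = 0.0624, in a range over its alternatives of 0.000808 to 0.0624). The gene rpn-6.2, on chromosome III from 8999817 to 9001999, had 10.8 and 9.59 CPM at 5 days, against 14.9 and 14.4 CPM at 1 day in arsenite, and 8.50 and 9.22 CPM at 5 days, against 15.9 and 16.4 CPM at 1 day in water. It fell to 0.696 in arsenite (-0.52, SE 0.12, adjusted p = 0.000625) and to 0.549 in water (-0.87, SE 0.12, adjusted p = 1.58e-06). The difference between these falls is the 0.34 given above, which did not pass. Per kb, rpn-6.2 stood at 0.0502 and 0.0451 of rpn-6.1 in arsenite and 0.0406 and 0.0455 in water at 5 days, against 0.0611 and 0.0577 in arsenite and 0.0639 and 0.0640 in water at 1 day. Spermatogenesis genes, a list of 10, summed to 3.30 to 4.58 CPM in the libraries at 5 days, against 6.42 to 7.77 CPM at 1 day. Of these sums gsp-3 held 0.045 to 0.129 CPM at 5 days, against 1.52 to 2.25 CPM at 1 day. The gene gsp-4 held 0.041 to 0.129 CPM at 5 days, against 1.16 to 1.83 CPM at 1 day. Of the 5 genes tested, 2 had positive log2 fold changes in each treatment. The sum thus leans on gsp-3 and gsp-4 and does not stand for the list. Of that list 5 passed the filter on low counts, 2 of these (gsp-3 and gsp-4) fell in each treatment, 0 rose, and msd-1 was at 0 counts in all 8 libraries; its part in the fall of rpn-6.2 was not tested.

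Falls in 1 or both treatments were also called for rpn-3, rpn-1 and rpn-2. The lid subunit rpn-3 had 376 and 359 CPM at 5 days, against 442 and 415 CPM at 1 day in arsenite, and 391 and 354.5 CPM at 5 days, against 405 and 444 CPM at 1 day in water. It fell to 0.857 in arsenite (log2 fold change -0.22, SE 0.06, adjusted p = 0.00463) and to 0.877 in water (-0.19, SE 0.06, adjusted p = 0.0141). The call was lost in arsenite without replicate 1 of arsenite at 1 day (adjusted p = 0.0757) and with total counts alone (0.0574), in a range of 0.000361 to 0.0757. In water it was lost without replicate 2 of water at 5 days (0.161) or at 1 day (0.179) and with total counts alone (0.125), in a range of 0.00322 to 0.179. By edgeR the scaffolds rpn-1 and rpn-2 each passed in 1 treatment, rpn-1 in arsenite and rpn-2 in water. DESeq2 and limma voom also called rpn-2 lower in arsenite and rpn-1 lower in water, so these calls do not set the treatments apart. The edgeR call of rpn-1 in arsenite was lost without either arsenite library at 5 days or replicate 1 of arsenite at 1 day. That of rpn-2 in water was lost without replicate 2 of water at 5 days or at 1 day.

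Of the ubiquitin receptors, rpn-13 rose in both treatments and rpn-10 fell in arsenite. The gene rpn-10 had 166 and 162 CPM at 5 days, against 186 and 179.6 CPM at 1 day in arsenite (log2 fold change -0.15, SE 0.06, adjusted p = 0.0277), and 173 and 158 CPM at 5 days, against 176 and 175 CPM at 1 day in water (-0.08, SE 0.06, adjusted p = 0.227). Its call in arsenite was lost without replicate 2 of arsenite at 5 days (adjusted p = 0.0898) or without replicate 1 (0.174) or 2 (0.0571) of arsenite at 1 day, and with total counts alone (-0.07, adjusted p = 0.309), in a range of 0.00798 to 0.309. The call of rpn-13 was lost in arsenite without replicate 1 of arsenite at 5 days or replicate 2 at 1 day, and in water without replicate 2 of water at 5 days or replicate 1 at 1 day. In water the call of rpn-13 was also lost by DESeq2 and by edgeR on the water libraries alone. The lid subunits rpn-5, rpn-7, rpn-9 and rpn-12 passed in neither treatment. Of the exons of rpn-7, 20.7% overlap nemt-1 on the other strand.

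**Figure D5:**
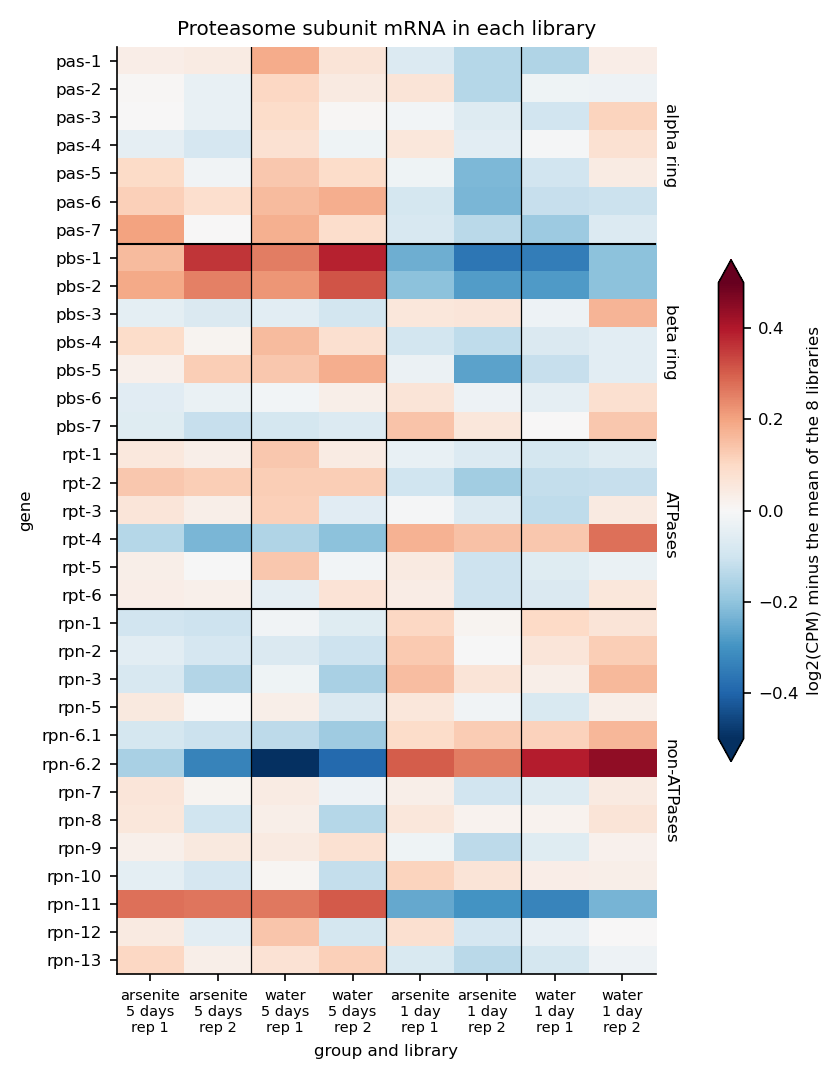
Log2 CPM of the 33 members in each library, minus each gene's mean over the 8 libraries, with rows grouped into alpha ring, beta ring, ATPases and non-ATPases. Red is above and blue below the mean; pbs-1, pbs-2 and rpn-11 are red in all libraries at 5 days and rpt-4 and rpn-6.2 blue.

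Summed over its genes, the core particle stood higher at 5 days, at the values given above for each library (2608 to 2742 CPM at 5 days, against 2301 to 2522 CPM at 1 day). Of these sums pbs-1 held 219.6 to 257 CPM at 5 days, against 153 to 170.4 CPM at 1 day. The gene pbs-2 held 203 to 221 CPM at 5 days, against 146 to 155 CPM at 1 day. In 6 core genes all libraries at 5 days lay above all at 1 day, and in 2 below (33.2% and 32.3% of all genes). The core sum and the ratio below thus lean on pbs-1 and pbs-2 and do not stand for every core gene. The regulatory sums overlapped between ages (5300 to 5543 CPM at 5 days, against 5299 to 5608 CPM at 1 day). The ratio of the mean count per kb of the core to that of the regulatory particle, taken within a library, was 1.20 and 1.22 in arsenite and 1.23 and 1.28 in water at 5 days, against 1.12 and 1.10 in arsenite and 1.12 and 1.15 in water at 1 day. The ages do not overlap in this ratio. The alpha ring over the beta ring was 0.992 and 0.9199 in arsenite and 1.01 and 0.939 in water at 5 days, against 1.00 and 0.978 in arsenite and 1.01 and 1.00 in water at 1 day.

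Libraries also differed in ways the groups do not give. At 5 days the libraries numbered 23 and 24, 1 of water and 1 of arsenite, were both above 25 and 26 in 15 members (4 core and 11 regulatory genes), against 22.2% of all genes, and both below in 3 members, against 22.9%. At 1 day the 33 members summed to 8085 CPM in replicate 1 and 7600 CPM in replicate 2 of arsenite, against 7712 CPM in replicate 1 and 8126 CPM in replicate 2 of water, so the spread within each group was wider than the distance between their means.

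Marker genes of tissues moved with age as well, and their part in the subunit changes was not tested. Of 8 body wall muscle genes 8 fell in each treatment, and their sum was 1641 to 1890 CPM at 5 days, against 5627 to 5885 CPM at 1 day. Of 7 intestinal genes 5 fell and 1 rose in each treatment (summed 289 to 338 CPM at 5 days, against 913 to 996 CPM at 1 day). Of 10 oocyte and early embryo genes 4 rose in arsenite, 5 rose in water and 0 fell. They summed to 10080 to 10330 CPM at 5 days, against 9107 to 9527 CPM at 1 day. Of these sums perm-2 held 989 to 1120 CPM at 5 days, against 395 to 407 CPM at 1 day. Of 8 zygotic embryo genes 3 rose and 5 fell in arsenite, and 2 rose and 4 fell in water (summed 30.3 to 33.8 CPM at 5 days, against 73.2 to 80.9 CPM at 1 day). Neuronal genes (8) summed to 407 to 457 CPM at 5 days, against 269 to 290 CPM at 1 day. Of these sums snb-1 held 251 to 272 CPM at 5 days, against 118 to 129 CPM at 1 day. In the neuronal list 1 gene was higher and 1 lower in arsenite, and 4 were higher (2 by DESeq2) and 1 lower in water. Hypodermal genes (8) summed to 179 to 199.6 CPM at 5 days, against 615 to 681 CPM at 1 day. Of these sums col-19 held 17.1 to 21.6 CPM at 5 days, against 449 to 508 CPM at 1 day. In the hypodermal list 3 genes were higher and 3 lower in arsenite, and 3 were higher and 4 lower in water. The oocyte, neuronal and hypodermal sums thus lean on single genes and do not stand for their lists.

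Genes that work with the proteasome were counted from 4 lists. In the arsenite comparisons 0 of 10 proteasome-bound and accessory factors, 0 of 5 genes of the SKN-1A pathway, 0 of 4 genes of ubiquitin and its activation and 0 of 7 genes of the CDC-48 unfoldase passed by edgeR at either age. At an unadjusted p under 0.05 they numbered 1, 0, 0 and 0 at 1 day and 0 in each list at 5 days. DESeq2 and limma voom called 0 of these genes at either age. Negative log2 fold changes at 5 days, which marked the core, were also seen in 4 of 4 ubiquitin genes (median -0.06) and 6 of 7 CDC-48 genes (-0.05). In the proteasome-bound and SKN-1A lists 3 of 10 and 1 of 5 were negative. At 1 day 4 of 4 ubiquitin and 3 of 7 CDC-48 genes were negative. The gene aip-1, whose product binds the proteasome and which is known as inducible by arsenite, stood at 32.7 ± 3.04 CPM in arsenite and 32.3 ± 1.46 CPM in water at 5 days (log2 fold change 0.01, SE 0.09, interval -0.17 to 0.19). At 1 day it stood at 28.3 ± 0.489 CPM in arsenite and 28.1 ± 0.211 CPM in water (SD, n = 2 each; 0.0093, SE 0.09, interval -0.17 to 0.19). Its average over both ages was 0.01 (SE 0.06) and the difference between ages 0.0038 (SE 0.12). The gene skn-1 had log2 fold changes of 0.04 (SE 0.06) at 5 days, -0.0025 (SE 0.06) at 1 day, 0.02 (SE 0.04) on average and 0.05 (SE 0.08) in the difference. Values this near 0 changed sign between alternatives.

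Between 5 days and 1 day, 5 of the 10 proteasome-bound factors rose and 1 fell in arsenite, and 4 rose and 1 fell in water. Of all genes, 30.3% rose and 29.4% fell in arsenite, and 30.1% rose and 30% fell in water, shares that the counts of all 4 lists are to be read against. The gene dss-1, for a small acidic subunit of the lid that the naming rule leaves out, stood at 76.0 ± 3.38 CPM at 5 days, against 46.7 ± 2.66 CPM at 1 day in arsenite, and at 78.0 ± 2.50 CPM against 49.1 ± 0.976 CPM in water (SD, n = 2 each). It rose 1.63-fold in arsenite (log2 fold change 0.70, SE 0.07, adjusted p = 1.07e-08) and 1.59-fold in water (0.67, SE 0.07, adjusted p = 2.35e-08). The gene ecps-1 rose by 0.34 in arsenite and 0.40 in water on the log2 scale (SE 0.06 each), rad-23 and ubql-1, shuttles that carry ubiquitinated proteins to the proteasome, rose in both, and the deubiquitinase ubh-4 fell in both. The gene aip-1 had 0.21 in arsenite (SE 0.09, adjusted p = 0.0474) and 0.20 in water (SE 0.09, adjusted p = 0.0517). Its call in arsenite was lost in most alternatives, among them 7 of the 8 that leave out a library (adjusted p of up to 0.471, without replicate 2 of arsenite at 5 days), in a range of 0.00856 to 0.471.

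In the SKN-1A list 3 of 5 genes rose in each treatment and 0 fell, beside 30.3% of all genes higher in arsenite and 30.1% in water. DESeq2 called 2 of the 5 higher in arsenite. The 3 called by edgeR were skn-1 (0.20 in arsenite, SE 0.06, adjusted p = 0.00379, and 0.16 in water, SE 0.06, adjusted p = 0.0208), png-1, the glycanase that edits SKN-1A (0.38 in arsenite and 0.31 in water, SE 0.09 and 0.08), and ddi-1, the protease that cuts SKN-1A (0.15 in arsenite, SE 0.06, adjusted p = 0.0468, and 0.24 in water, SE 0.06, adjusted p = 0.00227). In water the call of skn-1 was lost without replicate 2 of water at 5 days (adjusted p = 0.190) or without replicate 1 (0.0752) or 2 (0.0741) of water at 1 day, in a range of 0.000945 to 0.190. That of png-1 was lost without replicate 2 of water at 5 days (0.0556) or at 1 day (0.0896), in a range of 0.000185 to 0.0896, and that of ddi-1 without replicate 1 of water at 5 days (0.0904), in a range of 5.86e-05 to 0.0904. The ER-associated degradation genes sel-1 and sel-11 did not pass.

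Of 4 genes of ubiquitin supply, ubl-1, a ubiquitin-like fusion to a ribosomal protein, rose (0.43 in arsenite and 0.49 in water, SE 0.07 each). The ubiquitin-activating enzyme gene uba-1 fell (-0.30 in arsenite and -0.27 in water, SE 0.06 each), and the ubiquitin genes ubq-1 and ubq-2 did not pass. In the CDC-48 list 2 of 7 genes fell in each treatment and 0 rose, a share near that of all genes (29.4% lower in arsenite and 30% in water). DESeq2 and limma voom called 3 lower in arsenite. The 2 called by edgeR were ufd-2, which extends ubiquitin chains (-0.78 in arsenite and -0.80 in water, SE 0.06 each), and cdc-48.2, an unfoldase gene (-0.42 in arsenite and -0.39 in water, SE 0.06 each). Across the lists the median log2 fold changes in arsenite and water were 0.22 and 0.20 for proteasome-bound factors, 0.15 and 0.16 for the SKN-1A list, 0.01 and 0.02 for ubiquitin supply and -0.09 and -0.05 for CDC-48.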

How the data were processed

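The authors deposited whole-number read counts per gene. Per the submitters' processing notes, CASAVA 1.7, STAR 2.4.1d and featureCounts 1.4.6-p4 were named, with the build WBcel235. Annotation version, strandedness and the handling of multi-mapping reads are not stated in the material used. A deposited RPKM table was not used here, because its divisor differs between rows within a library.

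Symbols came from a reference table of WormBase names. Coordinates and exon lengths (all exons merged) came from Ensembl release 115 on WBcel235. The model was edgeR 4.0.16 under R 4.3.3, with filterByExpr by group (minimum count 10, minimum total 15), TMM scaling and a robust quasi-likelihood fit to 4 group means over 8 libraries, which leaves the groups 1 shared spread. The script was tested on simulated data. DESeq2 1.42.0, limma 3.58.1 (voom), other scalings, no filter, other sample sets and leaving out each library were the alternatives.

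The members, gene lists and rules were chosen with earlier results of these data known. Fold changes are given singly for the 4 largest rises and 4 largest falls per age comparison, for pbs-1, pbs-2, pbs-5, rpn-6.1, rpn-6.2, rpn-10 and rpn-11, for the 3 members of smallest p per arsenite comparison, for aip-1 and skn-1, and for up to 2 genes per list. The values of ddi-1 in arsenite and of pbs-4 were added outside this rule, after they were seen. Of 86 list symbols 85 matched the table.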

Additional observations from a re-analysis of the deposited data

How the results depend on the processing

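The count of members called kept within 1.5 times in every alternative run: 0 throughout for the 4 arsenite comparisons, 12 to 20 around 16 for 5 days against 1 day in arsenite, and 14 to 19 around 18 in water. These counts pool rises and falls, and each direction alone moved more. In arsenite 9 rose and 7 fell, against 16 and 2 with total counts alone and 9 and 9 with upper quartile scaling. In water 11 rose and 7 fell, against 15 and 3 with total counts alone and 11 and 8 with upper quartile scaling. No paired analysis was possible because the labels give no number that pairs an arsenite with a water library. The replicate numbers used here only name samples in accession order. Neighbouring library numbers, which no label calls pairs, were tried as a term, and 0 members were called for arsenite. Signs that turned were all of values that did not pass. For aip-1 in the difference between ages the value was -0.0019 with DESeq2 size factors, -0.0047 with upper quartile scaling, -0.012 without a filter, -0.0018 by DESeq2 and -1.9e-05 by voom, and -0.11 to 0.090 on leaving out 1 library. At 1 day aip-1 had -0.00058 with total counts alone and -0.0086 to 0.024 on leaving out 1 library, and skn-1 had 0.0016 without a filter and -0.0099 to 0.0024 on leaving out 1 library. On leaving out 1 library aip-1 also ran from -0.10 to 0.10 at 5 days and from -0.042 to 0.056 on average, skn-1 from -0.015 to 0.087 at 5 days, -0.0078 to 0.044 on average and -0.015 to 0.088 in the difference, and pas-5 from -0.20 to 0.0074 at 1 day. Depth bears most on rpn-6.2, with 204 counts in its lowest library. With 2 libraries a group, the 95% intervals of the 32 other members at 5 days lay within 0.856-fold to 1.13-fold.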
